A study of Arabidopsis thaliana with 39 samples.

Results

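Photosynthetic electron transport in the leaf runs through protein complexes of the thylakoid membrane, many of whose subunits are encoded in the nucleus and imported into the chloroplast. The 31 genes described here encode such subunits. They were taken by name, not by their response, from the 33110 genes of the count table: 12 subunits of photosystem I (PSAD to PSAO), 11 proteins of photosystem II (PSBO to PSBY, PSB27 and PSBS), 6 genes of the cytochrome b6f complex, plastocyanin, ferredoxin and ferredoxin-NADP reductase (*PETC*, *PETE1*, *PETE2*, *FD2*, *FNR1* and *FNR2*), and 2 subunits of the chloroplast ATP synthase (*ATPC1* and *ATPD*). All 31 passed the filter on low counts in every fit.

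The RNA came from rosettes of Arabidopsis thaliana in 13 groups of 3 libraries, 39 in all. The 2 independent overexpressors *35S::SLIM1 #17* and *35S::SLIM1 #25* carry the transcription factor gene *SLIM1* under the constitutive 35S promoter and were T2 plants selected on 30 mg/L hygromycin. The line *slim1-cr* carries a CRISPR deletion in *SLIM1* that includes the region for the DNA-binding domains, and is a single line. The empty vector line *EV* was sampled at 30 days after sowing (DAS) only, and wild-type Col-0 and the other 3 genotypes at 30, 37 and 44 DAS. All plants grew with sufficient nutrients under a 16 h photoperiod at 120 µmol of light, were moved to soil at 12 DAS, and were harvested without the stalk. Age and harvest day cannot be told apart in this design. The labels describe individual rosettes as replicates. If some libraries share a culture, p-values measure only the spread between these libraries.

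In the light reactions, photosystem II withdraws electrons from water at its oxygen-evolving complex, the cytochrome b6f complex and plastocyanin pass them to photosystem I, and ferredoxin and its reductase hand them to NADP. The proton gradient built on the way drives the ATP synthase. The nuclear genes of these complexes are among the most abundant leaf transcripts, respond to light and the clock, and are known to decline as leaves senesce. Their plastid-encoded partners (the reaction centre proteins among them) were not analysed here.

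Libraries held 38.4 to 46.2 M counts (median 45.5 M), so each of the 31 genes was far above its counting error and the spread between libraries set the precision. *SLIM1* itself followed the labels in all 39 libraries. Its transcript stood at 141 to 356 CPM (counts scaled to library size and TMM factor) in *#17*, 82.3 to 325 CPM in *#25*, 0.669 to 2.59 CPM in *slim1-cr*, 19.8 to 22.4 CPM in *EV* and 18.1 to 22.9 CPM in Col-0, where the count in *slim1-cr* also loses the deleted stretch. The 4 leaf markers *RBCS1A*, *RCA*, *CA1* and *CAB1* were abundant in every library, with summed levels of 7880 to 53848 CPM. The 10 flower organ markers summed to 3.3 to 61.2 CPM, the 3 pollen markers to at most 9.8 CPM and the 5 root markers to 30.9 to 128.0 CPM. In whole rosettes, fewer cells of a type and less RNA per cell cannot be told apart.

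The 31 transcripts together made up 1.42% to 6.36% of all counts of a library. At 30 DAS they took 5.53%, 5.78% and 6.09% in *#17*, 5.54%, 5.37% and 5.57% in *#25*, 6.36%, 5.98% and 5.48% in *slim1-cr*, 6.17%, 5.36% and 5.16% in *EV*, and 6.18%, 5.72% and 6.33% in Col-0. At 44 DAS the share was 2.23%, 1.75% and 1.99% in *#17*, 1.63%, 1.42% and 1.70% in *#25*, and 4.95%, 4.40% and 5.01% in *slim1-cr*, against 3.93%, 4.099% and 3.62% in Col-0. The overexpressor libraries of 44 DAS thus lay below, and the *slim1-cr* libraries above, every Col-0 library of that day. At 30 DAS the libraries of *#17*, *slim1-cr* and *EV* overlapped those of Col-0, and those of *#25* all lay below them.

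**Figure D1:**
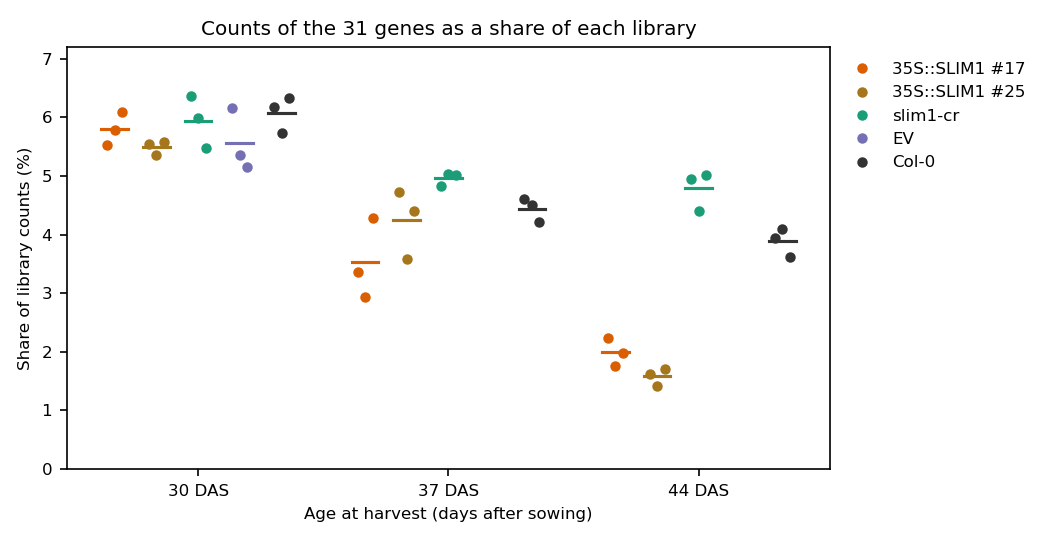
Share of all counts of a library taken by the 31 transcripts (percent, vertical axis) in each of the 39 libraries, by genotype and age; each point is 1 library and each bar the mean of 3. At 44 DAS the *35S::SLIM1* libraries sit between 1.42% and 2.23%, the *slim1-cr* libraries between 4.40% and 5.01%, and the Col-0 libraries between 3.62% and 4.099%.

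At 30 DAS few of the 31 transcripts differed from Col-0. Each genotype was compared with the Col-0 libraries of its day, which all comparisons of that day share, by edgeR's quasi-likelihood test, with p-values adjusted by Benjamini and Hochberg over all genes tested and a threshold of 0.05. In *#17* 0 of 31 passed, beside 6.95% of all genes in either direction, with 4 at an unadjusted p under 0.05 and 2 by DESeq2. In *#25* 2 of 31 were lower, beside 2.83% of all genes that were lower. These were *PSBQ-1*, for an extrinsic protein of the oxygen-evolving complex, with a log2 fold change (log2FC) of -0.43 (SE 0.11, adjusted p = 0.0355), and *PETE2*, the main plastocyanin gene, with a log2FC of -0.41 (SE 0.11, adjusted p = 0.048). With *EV* in place of Col-0, 0 passed in *#25*, and 0 or 1 passed when each library was left out in turn.

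In *slim1-cr* at 30 DAS 0 of 31 passed, beside 4.75% of all genes, with 8 at an unadjusted p under 0.05 and 4 by DESeq2. In *EV* 0 of 31 passed, beside 0.00% of all genes, with 11 at an unadjusted p under 0.05 and 2 by DESeq2. The medians of the 31 log2FC were -0.10 in *#17*, -0.19 in *#25*, -0.13 in *slim1-cr* and -0.19 in *EV*, where the median of all genes lay between -0.003 and 0.009.

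At 37 DAS 7 of 31 transcripts were lower in *#17* than in Col-0, beside 17.0% of all genes that were lower, and none was higher. Both ATP synthase genes were among them: *ATPD*, for the delta subunit, had a log2FC of -0.79 (SE 0.26, adjusted p = 0.0328), and *ATPC1*, for the gamma subunit, one of -0.44 (SE 0.14, adjusted p = 0.035). The others were *PSBQ-1* (-0.69), *PSBS* (-0.51), whose product dissipates excess light energy as heat, *PETE2* (-1.02), and both genes of ferredoxin-NADP reductase, *FNR1* (-0.37) and *FNR2* (-0.86). No photosystem I gene was called, and the median over the 31 was -0.27.

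Replicate 3 of *#17* at 37 DAS stood apart from the other two libraries of its group. The 31 transcripts took 4.28% of its counts, against 3.37% and 2.93% in the other libraries, and its leaf markers summed to 35113 CPM, against 22130 and 20222 CPM. *ATPD* shows the same split, with 243, 229.7 and 466 CPM in *#17*, against 596, 484 and 547 CPM in Col-0. All *#17* libraries lay below all Col-0 libraries even so. Without replicate 3 of *#17*, 23 of 31 were lower than in Col-0. Without replicate 1 or without replicate 2 of *#17*, 1 was, and without each Col-0 library in turn 2, 2 and 3 were. *PETE2* turned on 1 Col-0 library as well, with 1062, 932 and 1826 CPM in *#17* and 2031, 3731 and 1931 CPM in Col-0. Without the Col-0 library at 3731 CPM its log2FC was -0.63 (adjusted p = 0.0923).

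In *#25* at 37 DAS 0 of 31 differed from Col-0, beside 22.3% of all genes in either direction, with 3 at an unadjusted p under 0.05 and 2 by DESeq2. The median log2FC was 0.07. In *slim1-cr* 0 of 31 passed, beside 5.54% of all genes, with 1 at an unadjusted p under 0.05 and 1 by DESeq2. For 25 of the 31, however, every *slim1-cr* library lay above every Col-0 library, which held for 16.7% of all genes tested, and the median log2FC was 0.20.

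Between the overexpressors at 37 DAS, all 31 log2FC of *#25* against *#17* were above 0, with a median of 0.37. Of these 2 passed, *FNR2* (log2FC 0.63, SE 0.17, adjusted p = 0.0438) and *PSBS* (0.58, SE 0.15, adjusted p = 0.0387), beside 3.90% of all genes that were higher. *FNR2* was at 796, 597 and 780.1 CPM in *#25*, against 450.4, 375 and 559.6 CPM in *#17*, so that the libraries of the lines did not overlap. The count of 2 turned on single libraries: it was 0 without replicate 1 or 2 of *#17* or without replicate 1 or 3 of *#25*, and 24 without replicate 3 of *#17*. It was also 0 with the replicate number as a block and with only the 2 groups compared. At 30 DAS 0 of 31 differed between the lines, beside 1.69% of all genes, with 3 at an unadjusted p under 0.05 and 1 by DESeq2.

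At 44 DAS every one of the 31 transcripts was lower than in Col-0 in both overexpressors. In *#17* 31 of 31 passed, beside 20.6% of all genes that were lower, with log2FC between -1.80 and -0.66 and a median of -1.23. In *#25* 31 of 31 passed, beside 23.2% of all genes that were lower, with log2FC between -2.26 and -0.90 and a median of -1.60. The median of all genes was -0.01 in *#17* and 0.01 in *#25*. For all 31, every library of either line lay below every Col-0 library, a pattern that 27.3% of all genes tested showed in *#17* and 31.9% in *#25*. Leaving out each library in turn left 31 called in *#25* and 30 or 31 in *#17*, where *PSBQ-2* no longer passed without replicate 2 of *#17* (log2FC -0.51) or without Col-0 replicate 2 (-0.60).

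**Figure D2:**
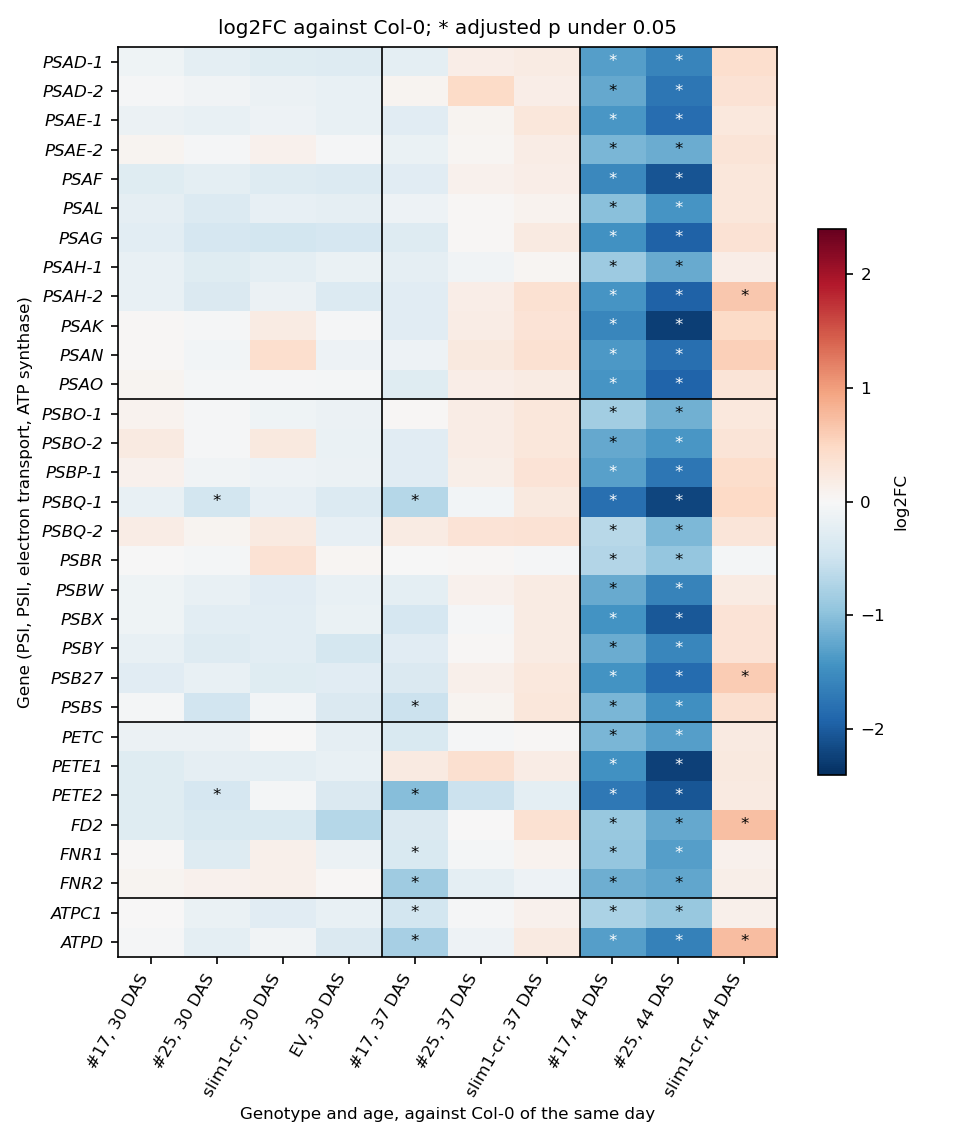
log2 fold change against Col-0 of the same day for each of the 31 genes (rows, by complex) in each genotype and age (columns); an asterisk marks an adjusted p under 0.05 in edgeR's quasi-likelihood test. The columns of both *35S::SLIM1* lines at 44 DAS are negative and marked in all 31 rows, and the *slim1-cr* column of that day is positive in 30 rows and marked in 4.

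All 12 photosystem I transcripts were lower at 44 DAS, with medians of -1.38 in *#17* and -1.81 in *#25*. *PSAK*, for a membrane subunit at the edge of the complex that contacts the antenna, had the largest change of the 31 in *#25*. It was at 492, 309 and 379.9 CPM in *#17*, 251, 199 and 269.8 CPM in *#25*, and 1138, 1259 and 1145 CPM in Col-0. The libraries of neither line came near those of Col-0. Its log2FC was -1.57 in *#17* (SE 0.18, adjusted p = 1.35e-04), while *#25* had -2.26 (SE 0.19, adjusted p = 1.68e-05). This left 33.6% of the Col-0 level in *#17* and 20.8% in *#25*.

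The other photosystem I genes are listed here by position in the complex. Of the stromal subunits that form the docking site of ferredoxin, *PSAD-1* had log2FC of -1.32 in *#17* and -1.59 in *#25*, *PSAD-2* of -1.23 and -1.73, *PSAE-1* of -1.39 and -1.82, and *PSAE-2* of -1.09 and -1.19. On the lumen side, *PSAF*, which takes part in docking plastocyanin, had log2FC of -1.54 in *#17* and -2.08 in *#25*, and *PSAN* of -1.37 and -1.80. Among the membrane subunits, *PSAG*, *PSAH-1*, *PSAH-2*, *PSAL* and *PSAO* ranged from -1.45 to -0.87 in *#17* and from -1.94 to -1.21 in *#25*. *PSAH-1* and *PSAE-2* changed least within photosystem I in *#25*, and each has a paralog that changed more.

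All 11 photosystem II transcripts were lower at 44 DAS, with medians of -1.22 in *#17* and -1.56 in *#25*. *PSBQ-1* had the largest change of the complex. It was at 228, 163 and 212 CPM in *#17*, 156, 122 and 171 CPM in *#25*, and 756, 721 and 641 CPM in Col-0. Again no library of the lines reached the lowest Col-0 library. Its log2FC was -1.80 in *#17* (SE 0.17, adjusted p = 4.16e-05), while *#25* had -2.21 (SE 0.17, adjusted p = 1.21e-05).

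Of the other extrinsic proteins that shield the manganese cluster, *PSBO-1* had log2FC of -0.83 in *#17* and -1.16 in *#25*, *PSBO-2* of -1.22 and -1.40, and *PSBP-1* of -1.31 and -1.73. The small membrane subunits *PSBW*, *PSBX* and *PSBY* ranged from -1.43 to -1.20 in *#17* and from -2.04 to -1.56 in *#25*. *PSB27*, which assists assembly and repair of the complex, had log2FC of -1.43 and -1.85, and *PSBS* of -1.11 and -1.47. The smallest changes were those of *PSBQ-2* and *PSBR*, described with the paralogs and with age.

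The 6 electron transport genes were lower too, with medians of -1.13 in *#17* and -1.32 in *#25*. *PETE1*, the lesser plastocyanin gene, was at 93.2, 54.9 and 63.2 CPM in *#17*, 44.0, 38.1 and 39.2 CPM in *#25*, and 199, 219 and 168 CPM in Col-0. All libraries of *#25* were below those of *#17*, and all of *#17* below those of Col-0. Its log2FC was -1.46 in *#17* (SE 0.18, adjusted p = 1.96e-04), while *#25* had -2.24 (SE 0.19, adjusted p = 1.74e-05). *PETE2* had log2FC of -1.71 and -2.05, *PETC*, the Rieske iron-sulfur protein of cytochrome b6f, of -1.09 and -1.31, and *FD2*, the major leaf ferredoxin, of -0.91 and -1.22.

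The reductase genes had log2FC of -0.93 in *#17* and -1.32 in *#25* for *FNR1*, and of -1.17 and -1.25 for *FNR2*. Both ATP synthase genes were lower, with log2FC of -0.75 in *#17* and -0.90 in *#25* for *ATPC1* and of -1.33 and -1.61 for *ATPD*.

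Between the lines at 44 DAS, all 31 log2FC of *#25* against *#17* were below 0, with a median of -0.40, but 0 of 31 passed, beside 0.00976% of all genes in either direction. At an unadjusted p under 0.05 there were 19 of the 31, and by DESeq2 3. The libraries did not overlap for 13 of the 31, beside 9.88% of all genes tested. The largest differences were those of *PETE1* (-0.78, SE 0.18, adjusted p = 0.471) and *PSAK* (-0.69, SE 0.18, adjusted p = 0.507).

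In *slim1-cr* at 44 DAS 4 of 31 transcripts were higher than in Col-0, beside 6.21% of all genes that were higher, and none was lower. They were *ATPD* (log2FC 0.74, SE 0.16, adjusted p = 0.0363), *FD2* (0.72, SE 0.15, adjusted p = 0.0357), *PSAH-2* (0.64, SE 0.18, adjusted p = 0.0487), for a membrane subunit needed for state transitions, and *PSB27* (0.60, SE 0.16, adjusted p = 0.0468). *FD2* was at 1256, 1067 and 1218 CPM in *slim1-cr*, against 817, 684 and 684 CPM in Col-0. *ATPD* was at 482, 383 and 506 CPM in *slim1-cr*, against 287, 276 and 274 CPM in Col-0. For both genes the *slim1-cr* libraries were all above those of Col-0.

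Of the 31 log2FC in *slim1-cr* at 44 DAS, 30 were above 0, with a median of 0.31 where the median of all genes was 0.03, and 11 had an unadjusted p under 0.05. For 17 of the 31 the groups did not overlap, beside 17.2% of all genes tested. The exception was *PSBR*, with 4505, 5009 and 3994 CPM in *slim1-cr*, against 4486, 5331 and 4283 CPM in Col-0 (log2FC -0.04, SE 0.18). The count turned on single libraries: 0 were called without Col-0 replicate 2 or 3 or without *slim1-cr* replicate 1 or 3, and 8 were called without *slim1-cr* replicate 2.

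From 30 to 44 DAS the 31 transcripts declined in Col-0, and more so in the overexpressors. In Col-0 23 of 31 were lower at 44 than at 30 DAS, beside 34.0% of all genes that were lower, and 1 was higher, beside 33.2% that were higher. The median log2FC was -0.59. In *#17* 30 of 31 were lower, beside 36.6% of all genes, with a median of -1.86, and in *#25* 31 of 31 were, beside 37.0%, with a median of -2.26. In *slim1-cr* 8 of 31 were lower, beside 25.3% of all genes, with a median of -0.22. These were *PSAD-1*, *PSAH-2*, *PSBO-2*, *PSBY*, *PSBS*, *FD2*, *ATPC1* and *ATPD*.

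**Figure D3:**
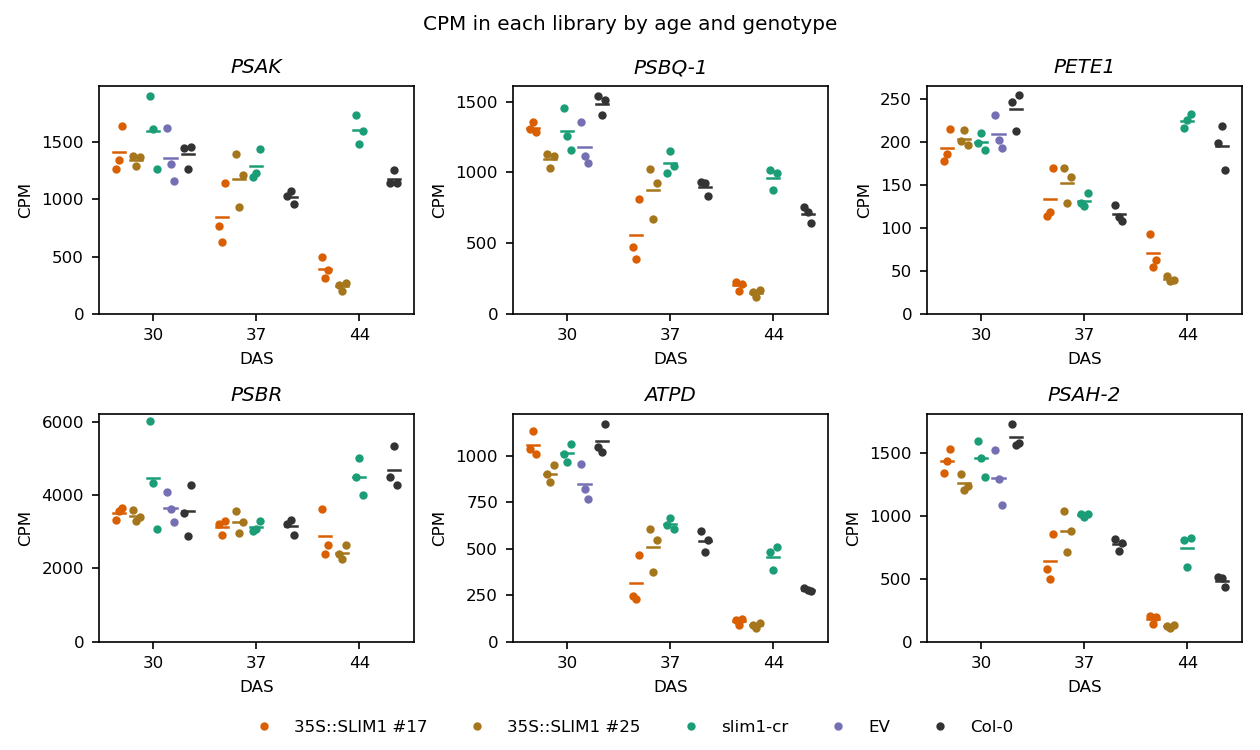
CPM (vertical axis, from 0) at 30, 37 and 44 DAS (horizontal axis) of 6 of the genes in each genotype; each point is 1 library and each bar the mean of 3. At 44 DAS the libraries of both *35S::SLIM1* lines lie below those of Col-0 in all 6 panels.

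The largest declines with age, picked out after their values were seen, were those of *ATPD* and *PSAH-2*. *ATPD* was at 1037, 1129.6 and 1006 CPM in *#17* at 30 DAS and at 117, 90.0 and 124 CPM at 44 DAS (log2FC -3.26, SE 0.20, adjusted p = 3.44e-13). In Col-0 it was at 1046, 1017 and 1170.2 CPM at 30 DAS and at 287, 276 and 274 CPM at 44 DAS (-1.95, SE 0.19, adjusted p = 1.67e-09). It declined in each of the 4 genotypes, with log2FC of -3.34 in *#25* and -1.15 in *slim1-cr*. *PSAH-2* had age log2FC of -2.998 in *#17*, -3.36 in *#25*, -0.97 in *slim1-cr* and -1.74 in Col-0.

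*PSBR*, for a small photosystem II protein close to the oxygen-evolving complex, went against this trend in Col-0. It was at 3524, 2877 and 4270.1 CPM at 30 DAS and at 4486, 5331 and 4283 CPM at 44 DAS in Col-0, a log2FC of 0.40 (SE 0.17, adjusted p = 0.0393). Its highest library of 30 DAS lay just below the lowest of 44 DAS. At 37 DAS *PSBR* was at 3213, 3315 and 2911 CPM in Col-0, within the range of 30 DAS, so that the higher level was seen at 44 DAS only. At 44 DAS it stood at 3615, 2387 and 2628 CPM in *#17* and 2398, 2260.0 and 2628 CPM in *#25*, so that it was lower than in Col-0 there too, with log2FC of -0.70 (SE 0.18, adjusted p = 0.0115) and -0.92 (SE 0.18, adjusted p = 0.00227). Within *#17* its age log2FC of -0.29 (SE 0.17, adjusted p = 0.127) did not pass.

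The difference from Col-0 itself changed between 30 and 44 DAS. In *#17* this change was negative and past the threshold for 30 of 31, beside 15.1% of all genes with a lower difference, with a median of -1.19. The one that did not pass was *FD2* (-0.63). In *#25* it was so for 31 of 31, beside 18.5% of all genes, with a median of -1.39. In *slim1-cr* the change was positive for 3 of 31, beside 4.35% of all genes with a higher difference, with a median of 0.44: *FD2* (1.07, SE 0.25, adjusted p = 0.0151), *PSAH-2* (0.77, SE 0.24, adjusted p = 0.0452) and *PSAD-1* (0.68, SE 0.19, adjusted p = 0.0341). At 30 DAS all 3 had log2FC below 0 in *slim1-cr*, none of which passed (*FD2* -0.37, *PSAD-1* -0.28, *PSAH-2* -0.15). *FD2* was then at 1491, 1741 and 2073 CPM in *slim1-cr*, against 2504, 2317 and 2056 CPM in Col-0, so that the groups overlapped. *PSAD-1* was at 2061, 2190.1 and 1887 CPM in *slim1-cr*, all below the 2524, 2422 and 2568 CPM in Col-0. When each of the 12 libraries was left out in turn, 0 or 1 gene was called in *slim1-cr* for 9 of them, and 3 to 6 for the other 3.

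**Figure D4:**
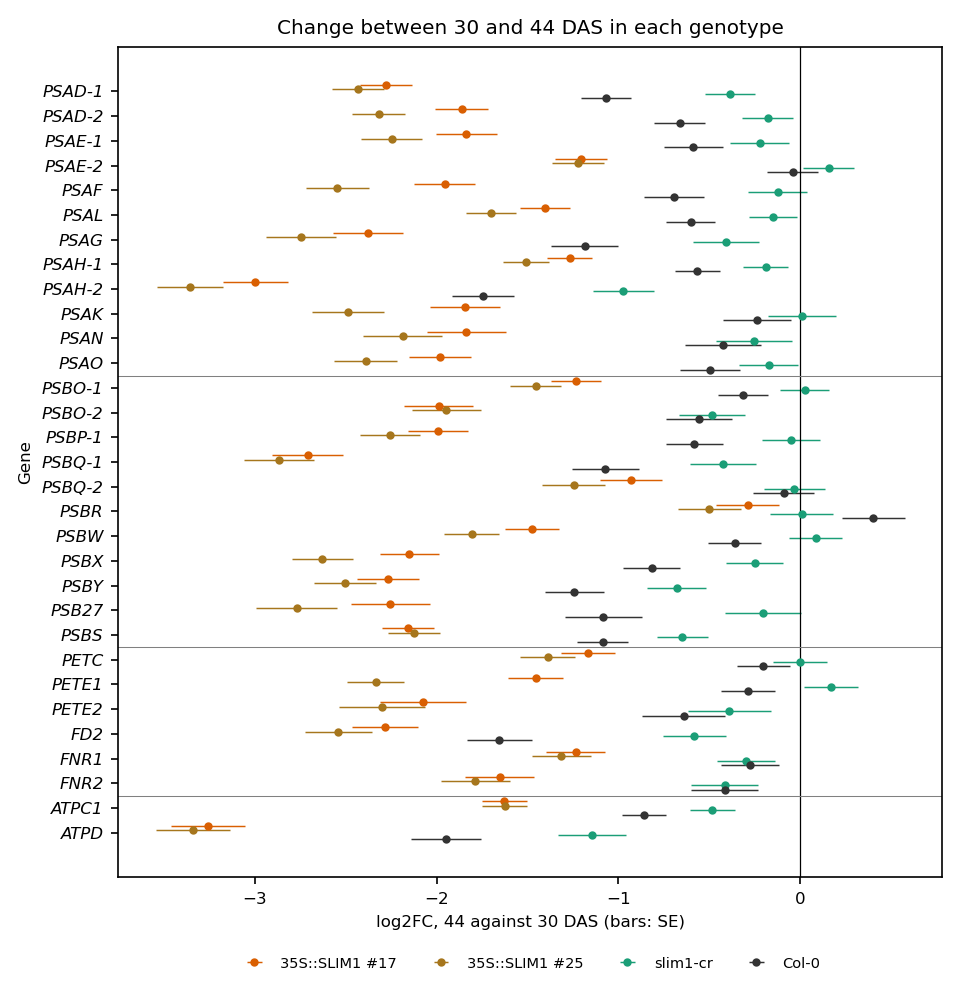
log2 fold change from 30 to 44 DAS of each of the 31 genes in *35S::SLIM1 #17*, *35S::SLIM1 #25*, *slim1-cr* and Col-0 (points), with bars of 1 SE. The points of the overexpressors reach -3.36, those of Col-0 run from -1.95 to 0.40 and those of *slim1-cr* from -1.15 to 0.17.

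For 7 subunits the list holds a pair of genes that each encode a form of the subunit. The ratio of the 2 transcripts within a library does not depend on the scaling between libraries. The pairs share 60.3% to 87.0% of their coding bases, with identical runs of at most 35 bases, which are shorter than a read. Whether any reads counted to the other copy was not tested. Ratios were compared by two-sided exact permutation tests of the difference in log2 ratio, over 12 against 12 libraries for age within 4 genotypes and over 9 against 9 for a genotype within 3 days, adjusted over 28 tests. All 7 ratios passed for the change from 30 to 44 DAS, and 6 of them also passed whichever replicate number was left out. The first copy lost ground for *PSBQ-1* to *PSBQ-2* (-1.20), *PSAE-1* to *PSAE-2* (-0.65) and *PSAD-1* to *PSAD-2* (-0.28), and gained for *PSAH-1* to *PSAH-2* (1.39) and *PSBO-1* to *PSBO-2* (0.50), each with the smallest p the permutations can give (adjusted p = 7e-05) and the same direction in all 4 genotypes. The changes for *PETE1* to *PETE2* (0.39, adjusted p = 0.0149, above 0 in 3 of 4 genotypes) and *FNR1* to *FNR2* (0.29, adjusted p = 8.75e-04, above 0 in all 4) were smaller. That of *PETE1* to *PETE2* no longer passed without replicate 1 (0.27, adjusted p = 0.205) or replicate 2 (0.33, adjusted p = 0.136) of all groups.

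The *PSBQ* pair differed most between genotypes. *PSBQ-1* made up 42.5% of the counts of the pair in Col-0 at 30 DAS and 27.3% at 44 DAS. At 44 DAS it made up 14.7% in both *#17* and *#25*. These shares are not corrected for exon length, which is 997 bases for *PSBQ-1* and 1271 for *PSBQ-2*. Per kb of exon, *PSBQ-1* was at 1490 CPM against 1578 for *PSBQ-2* in Col-0 at 30 DAS, and at 708 against 1480 at 44 DAS. The log2 ratios of *PSBQ-1* to *PSBQ-2* at 44 DAS were -2.63, -2.48 and -2.51 in *#17* and -2.52, -2.52 and -2.57 in *#25*, against -1.22, -1.49 and -1.53 in Col-0. Over the 3 days the log2 ratio differed from Col-0 by -0.80 in *#17* and by -0.67 in *#25*, lower on each of the 3 days in both lines, with the smallest p the permutations can give (exact permutation test, adjusted p = 8.75e-04 for each line). In *slim1-cr* the difference was -0.10 (adjusted p = 0.355).

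At 30 DAS the log2 ratio in *#25* was below that in Col-0, at -0.96, -1.02 and -0.78 in *#25*, against -0.39, -0.46 and -0.45 in Col-0. In *#17* it was -0.65, -0.64 and -1.01, also below every Col-0 library. *EV* at -0.59, -0.54 and -0.58 and *slim1-cr* at -1.05, -0.81 and -0.55 lay below Col-0 at that age as well. With 3 libraries against 3 the exact test within 1 day cannot go under a p of 0.1, and none was run.

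The promoters of the pair are shown because these 2 copies of one subunit had among the largest and the smallest changes of the 31. *PSBQ-1* (AT4G21280) lies on chromosome 4 of TAIR10.1, from 11334352 to 11335815 on the plus strand, and *PSBQ-2* (AT4G05180) on chromosome 4 from 2671523 to 2673243 on the minus strand. The 150 bases before each annotated gene start (RefSeq, TAIR10.1) follow, read 5′ to 3′ on the strand of the gene, at chr4:11334202-11334351 for *PSBQ-1* and chr4:2673244-2673393 for *PSBQ-2*. Capitals mark matches on either strand to the G-box CACGTG, the I-box GATAAG, the GLK site CCAATC or the TATA box TATAAA.
PSBQ-1: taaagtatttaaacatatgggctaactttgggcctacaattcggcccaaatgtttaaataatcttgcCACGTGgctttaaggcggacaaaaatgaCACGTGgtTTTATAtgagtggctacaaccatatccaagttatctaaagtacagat
PSBQ-2: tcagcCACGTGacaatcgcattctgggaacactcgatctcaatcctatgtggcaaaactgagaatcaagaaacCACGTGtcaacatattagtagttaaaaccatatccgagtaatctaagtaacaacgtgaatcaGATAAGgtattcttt
Both hold 2 G-boxes in this stretch. *PSBQ-1* also holds a TATA match, and *PSBQ-2* an I-box.

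The *PSAH* pair shifted towards *PSAH-1* with age. *PSAH-1* made up 40.3% of the counts of the pair in Col-0 at 30 DAS and 60.4% at 44 DAS. At 44 DAS it made up 69.2% in *#17* and 71.7% in *#25*. In *slim1-cr* it made up 38.97% at 30 DAS and 52.6% at 44 DAS. These shares are not corrected for exon length, which is 1300 bases for *PSAH-1* and 702 for *PSAH-2*. Per kb of exon, *PSAH-1* was still below *PSAH-2* in Col-0 at 44 DAS (570 against 689 CPM per kb). In *#25* at 44 DAS it was above (240 against 175 CPM per kb). Over the 3 days, the log2 ratio of *PSAH-1* to *PSAH-2* differed from Col-0 by -0.28 in *slim1-cr* (exact permutation test, adjusted p = 0.0126, lower on each of 3 days). In *#17* it differed by 0.22 (adjusted p = 0.0494), mostly from 44 DAS. By day the difference in *#17* was 0.002 at 30 DAS, 0.09 at 37 DAS and 0.56 at 44 DAS. In *#25* the difference over the 3 days was 0.19 (adjusted p = 0.153), above 0 on 2 of 3 days. Exons of *PSAH-1* and *PSAH-2* overlap genes on the opposite strand by 693 and 174 bases. Whether the counting used the strand of the reads is not given in the sources used here, so reads of such partners cannot be told apart. Exons of 10 of the 31 genes overlap another annotated gene, those of *PSAD-2* on the same strand only, by 2 bases.

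The *PSAE* ratio was lower than in Col-0 in *#17* (-0.22, exact permutation test, adjusted p = 0.00156) and in *#25* (-0.26, adjusted p = 0.0205). In *#17* alone the *PSAD* ratio was lower (-0.16, adjusted p = 0.0175) and the ratios of *PSBO* (0.19, adjusted p = 0.0457) and *FNR* (0.23, adjusted p = 0.023) were higher. Whether these differed between the lines was not tested. Some of these means join days of opposite direction. At 30, 37 and 44 DAS the differences in *#17* were -0.13, 0.31 and 0.39 for *PSBO* and -0.04, 0.49 and 0.25 for *FNR*. Those of *PSAE* in *#25* were -0.16, 0.02 and -0.63. The *PETE* ratio passed in no genotype. Of all these differences between genotypes, those of the *PSBQ* pair in *#17* and *#25* alone passed whichever of the 3 replicate numbers was left out.

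**Figure D5:**
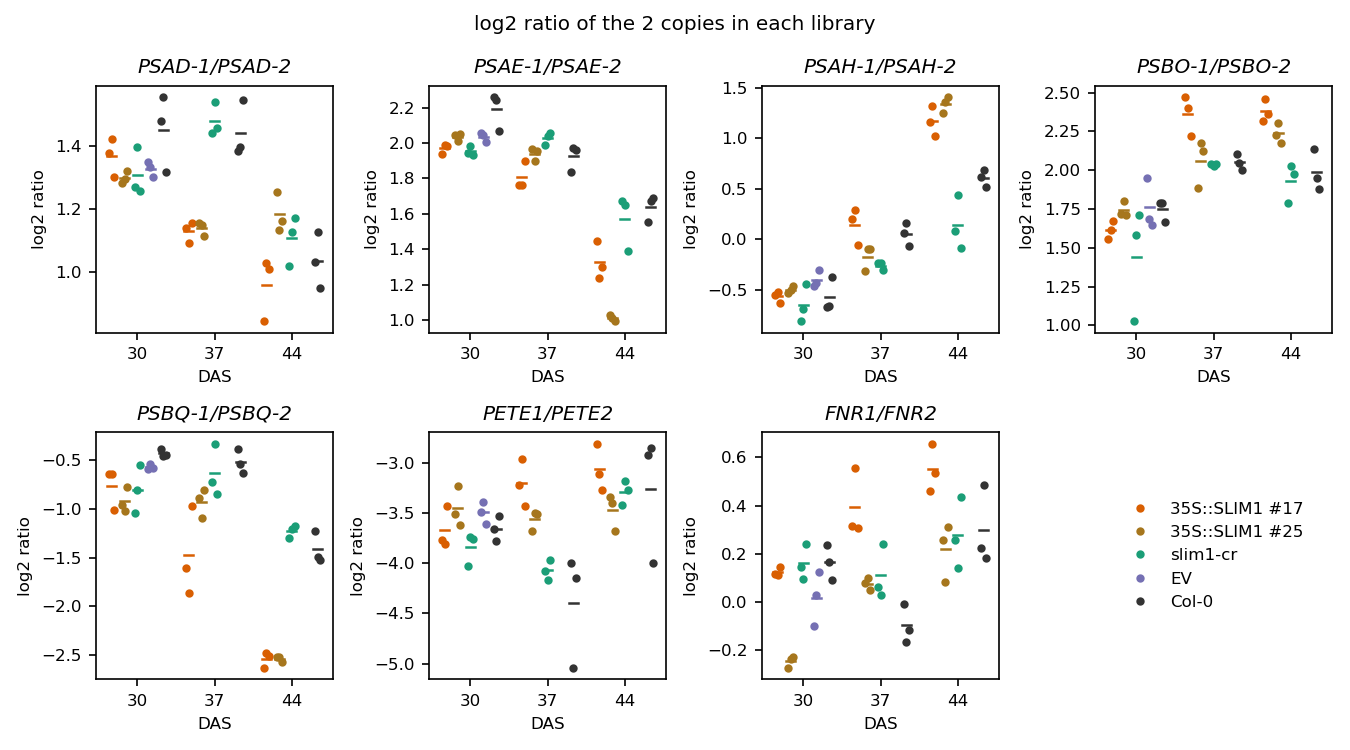
log2 ratio of the 2 copies' CPM for each of the 7 pairs in each library, by genotype and age (points; bars are means of 3). For *PSBQ-1* to *PSBQ-2* the 44 DAS libraries of both *35S::SLIM1* lines lie between -2.63 and -2.48, and those of Col-0 between -1.53 and -1.22.

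Levels per length of exon differed widely among the 31. In Col-0 at 30 DAS, *PSBR* was the highest at 4537 CPM per kb of exon, followed by *PSAF* at 3986, *PSAG* at 3763, *PSAO* at 3647 and *PSAL* at 3449.5. *PETE1* was the lowest at 227 CPM per kb, after *PSB27* at 368 and *FNR2* at 484. *PSBR* remained the highest in Col-0 at 44 DAS (5995 CPM per kb) and in *#25* at 44 DAS (3098). The 2 genes that lost most places in Col-0 were *PSAH-2*, rank 11 at 30 DAS and 21 at 44 DAS, and *FD2*, rank 10 at 30 DAS and 18 at 44 DAS.

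*PSAK* and *PSBR*, whose promoters are shown as those of the gene with the largest change in *#25* at 44 DAS and of the gene that was higher at 44 DAS in Col-0, lie on chromosome 1 of TAIR10.1, from 10722183 to 10723247 (AT1G30380) and from 29735952 to 29737009 (AT1G79040), both on the plus strand. The stretches are chr1:10722033-10722182 and chr1:29735802-29735951, marked as above.
PSAK: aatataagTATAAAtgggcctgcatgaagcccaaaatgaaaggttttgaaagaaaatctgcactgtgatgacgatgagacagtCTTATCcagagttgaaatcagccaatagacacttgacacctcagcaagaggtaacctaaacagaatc
PSBR: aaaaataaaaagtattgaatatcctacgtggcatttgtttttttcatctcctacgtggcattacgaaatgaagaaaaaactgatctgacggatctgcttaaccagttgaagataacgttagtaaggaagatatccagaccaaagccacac
*PSAK* holds an I-box and a TATA match here, and *PSBR* none of the 4 motifs.

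Over the 31 promoters, searched on both strands in the 250 bases before the annotated gene start, the G-box CACGTG was found in 5 (16.1%, against 6.49% of all 27443 promoters of that length): *PSAE-2*, *PSAH-2*, *PSBQ-1*, *PSBQ-2* and *ATPD*. The I-box GATAAG was in 8 (25.8%, against 12.3%), the GLK site CCAATC in 5 (16.1%, against 10.2%) and the evening element core AATATCT in 4 (12.9%, against 10.003%). TATAAA was in 15 (48.4%, against 47.3%), the core GAGAC of a sulfur-responsive element in 6 (19.4%, against 25.8%) and the core AAAGC of the MNB1A motif in 14 (45.2%, against 43.7%). The median log2FC at 44 DAS of the 5 genes with a G-box was -1.33 in *#17* and -1.61 in *#25*, and that of the 26 without was -1.22 and -1.59. For the change from 30 to 44 DAS in Col-0 it was -1.07 with a G-box and -0.59 without. For the 8 genes with an I-box the medians at 44 DAS were -1.37 in *#17* and -1.76 in *#25*, against -1.22 and -1.60 for the 23 without, and -0.46 against -0.59 for the change in Col-0. None of these differences was tested. Motifs were counted separately, whether or not they overlapped, and a match is a description of the letters only.

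Other photosynthesis genes, from lists chosen with earlier results of these data known, were set beside the 31. Of 17 antenna genes, which bind the light-harvesting chlorophyll, 17 were lower in *#17* at 44 DAS (median log2FC -1.72), 17 were lower in *#25* (-2.36) and 3 were higher in *slim1-cr* (0.36). The largest changes were those of *LHCB1.4*, at -4.61 in *#17* and -5.95 in *#25*. Of 18 assembly and repair factors 15 were lower in *#17* (-0.71), 16 in *#25* (-0.80), and 3 were higher in *slim1-cr*, among them *PSB28* (1.00) and *CYP38* (0.65). *CYP38*, a lumen protein needed to assemble photosystem II, was at -1.43 in *#17* and -1.70 in *#25*. Of 21 genes of cyclic electron flow, the NDH complex and their regulation, 15 were lower and 2 higher in *#17*, 16 were lower and 2 higher in *#25*, and 3 were higher in *slim1-cr*. Beside these counts, 20.6% of all genes were lower in *#17* and 23.2% in *#25*, and 6.21% were higher in *slim1-cr*.

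Of 7 regulators of photosynthesis genes 6 were tested, and they did not move as one. At 44 DAS *GLK2* was lower in *#17* (log2FC -1.06) and *#25* (-1.07), and *GNC* was lower (-0.74 and -0.90), while *GLK1*, the partner of *GLK2* as an activator of these genes, was higher (0.75 and 0.69). *GLK1* was at 220.3, 191 and 185 CPM in *#17* and 195, 174 and 193 CPM in *#25*, against 86.4, 138 and 132 CPM in Col-0. At 37 DAS 5 of the 6 were lower in *#17*, beside 17.0% of all genes that were lower. In *#25* 4 of the 6 were lower, beside 22.3% of all genes in either direction. Of the 31 subunit genes 0 passed in *#25* at that age, and 2 by DESeq2. Whether the regulators and the 31 genes are linked was not tested.

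Markers of leaf and senescence state moved with these results at 44 DAS, and those of the clock did so only in part. Among the leaf markers, *RBCS1A*, *RCA* and *CAB1* are themselves photosynthesis genes, so their sum is no separate measure of leaf content. At 44 DAS the 4 leaf markers summed to 11175 to 16211 CPM in *#17*, 7880 to 10064 CPM in *#25* and 36878 to 41027 CPM in *slim1-cr*, against 25865 to 34284 CPM in Col-0, and 3 of 4 were lower in *#17* and 4 of 4 in *#25*. The 10 senescence markers summed to 1239 to 2186 CPM in *#17*, 1781 to 2666 CPM in *#25* and 340 to 624 CPM in *slim1-cr*, against 525 to 821 CPM in Col-0, with 6 of 10 higher in *#17*, 9 higher in *#25* and 1 lower in *slim1-cr*. Of 9 clock genes 3 were higher and 5 lower in *#17*, and 1 was higher and 4 lower in *#25*. They summed to 444 to 512 CPM in *#17* and 504 to 512 CPM in *#25*. The sum was 445 to 647 CPM in *slim1-cr* and 626 to 691 CPM in Col-0. *PRR9*, a morning gene of the clock, was at 12.7 to 18.2 CPM in *#17* and 18.7 to 23.4 CPM in *#25*, against 29.0 to 32.4 CPM in Col-0. In either direction, 8285 of the 20499 genes tested at 44 DAS were called in *#17*, 9440 in *#25* and 2087 in *slim1-cr*. At 37 DAS the clock genes summed to 519 to 525 CPM in *#17* and 610 to 633 CPM in *#25*. The sum was then 523 to 608 CPM in *slim1-cr* and 698 to 791 CPM in Col-0. By this sum every library of *#17*, *#25* and *slim1-cr* lay below every Col-0 library at 37 DAS. The part of these markers in the results was not tested.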

How the data were processed

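The 39 libraries were made by the authors from polyadenylated RNA as strand-specific paired-end libraries, aligned to the TAIR10 genome in CLC Genomics Workbench, with Araport11 gene models, and deposited as whole-number read counts per gene. A second deposited table, of normalized signal made by the authors with DESeq2 1.40.2, was not used here. The genes and lists were chosen with earlier results of these data known.

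Counts were tested in R 4.3.3 with edgeR 4.0.16 (filterByExpr, TMM factors, robust quasi-likelihood F test), with the 15, 12 or 12 libraries of a day in one fit for genotypes and lines, and all 39 libraries in one fit for age and for the change of a difference. P-values were adjusted over the 20274, 20296 and 20499 genes tested at 30, 37 and 44 DAS, or 21040 in the fit of all libraries. The SE is the log2FC divided by the square root of F. CPM use the TMM factors of the fit of all libraries. Paralog ratios use log2(CPM + 0.5), with exact permutation tests in Python 3.11.15 and SciPy 1.17.1. Scripts were tested on simulated data.

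All 31 genes are named. Values of each library are given for the gene of each complex with the largest log2FC at 44 DAS, for genes that went against the others and for the paralogs, and other such genes were picked after their values were seen. Lists of leaf, flower organ, pollen, root, senescence and clock markers were read in every library. Alternatives were DESeq2 1.42.0, RLE factors, library size alone, no filter or a stricter filter of 1 CPM in 3 libraries, only the compared groups, all libraries in one fit, the replicate number as a block, *EV* in place of Col-0, pseudocounts of 0 and 5, and each library left out.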

Additional observations from a re-analysis of the deposited data

Results flagged for a closer look

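At 37 DAS 2 of the 31 transcripts were higher in *35S::SLIM1 #25* than in *#17*, by edgeR's quasi-likelihood test, beside 3.90% of all genes. This count was 0 when any of 4 of the 6 libraries was left out, and 24 without replicate 3 of *#17*. The change of the difference from Col-0 between 30 and 44 DAS itself passed the test for 30 of the 31 in *#17*, for 31 in *#25* and for 3 in *slim1-cr*, negative in the overexpressors (beside 15.1% and 18.5% of all genes) and positive in *slim1-cr* (beside 4.35%). In *slim1-cr* 0 or 1 passed when any of 9 of the 12 libraries was left out. With 3 libraries per group, no library was tested as standing apart.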

How the results depend on the processing

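At 44 DAS 31 of 31 stayed called in *#25* under every alternative run, and in *#17* under all but leaving out replicate 2 of *#17* or of Col-0 (30 each). The cause of the moves that follow was not tested. DESeq2 called 4 of the 31 in *slim1-cr*, 2 in *#17*, 7 in *#25* and 2 in *EV* at 30 DAS, 1 in *slim1-cr* and 2 in *#25* at 37 DAS, 9 in *slim1-cr* at 44 DAS, 1, 5 and 3 between the lines at 30, 37 and 44 DAS, and 6 for the change in *slim1-cr*. With *EV* in place of Col-0, 1 was called in *#17* (*ATPD*, log2FC 0.32 with an adjusted p of 0.0498, against -0.02 with Col-0) and 0 in *#25*. With all libraries in one fit, 0 were called in *#25* at 30 DAS, 2 in *#25* at 37 DAS, 7 in *slim1-cr* at 44 DAS, and 7 and 1 between the lines at 37 and 44 DAS. With no filter, 1 was called in *#25* at 30 DAS, 2 in *slim1-cr* at 44 DAS, 1 between the lines at 37 DAS and 1 for the change in *slim1-cr*. With only the groups compared, 10 were called in *#25* at 30 DAS, 1 in *#17* at 37 DAS, 0 in *slim1-cr* at 44 DAS and 0 between the lines at 37 DAS. A stricter filter called 1 in *#25* at 37 DAS. Library size alone called 14 with age in *slim1-cr*, and shifted the median of all genes by up to 0.19 (*#25* at 44 DAS). Leaving out the 4 libraries with the most flower organ marker RNA, an alternative chosen after seeing the data, 0 were called in *#25* at 30 DAS, 2 in *#17* at 37 DAS, 0 between the lines at 37 DAS and 1 for the change in *slim1-cr*.

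Deviations of same-numbered libraries from their group means had correlations of -0.44 to 0.19 at 30 DAS, -0.57 to 0.65 at 37 DAS and -0.48 to 0.44 at 44 DAS. Their medians were -0.03, -0.12 and -0.06. Libraries of other numbers had -0.26 to 0.45, -0.67 to 0.79 and -0.45 to 0.48, with medians of 0.009, 0.008 and -0.004. Same-numbered libraries were thus no more alike by these medians, which cannot exclude a shared origin of some. With the replicate number as a block, 1 was called in *#25* at 30 DAS and 0 between the lines at 37 DAS, and the permutations within it no longer passed for *PSAE* in *#25* (-0.26, adjusted p = 0.0703), *PSAH* in *#17* (0.22, adjusted p = 0.0802), *PSBO* in *#17* (0.19, adjusted p = 0.137) and *FNR* in *#17* (0.23, adjusted p = 0.0673). With a pseudocount of 5 CPM the *PSAH* ratio in *#17* was 0.21 (adjusted p = 0.0508).

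When each library was left out in turn, the count of the 31 called ranged at 30 DAS from 0 to 4 in *slim1-cr*, 0 to 1 in *#17*, 0 to 1 in *#25* and 0 to 1 between the lines. At 37 DAS it ranged from 1 to 23 in *#17*, 0 to 1 in *#25* and 0 to 24 between the lines, and at 44 DAS from 0 to 8 in *slim1-cr*. For the change in *slim1-cr* it was 0 to 6, and for age 19 to 22 in Col-0 and 6 to 11 in *slim1-cr*. With 1 replicate number left out of all groups, which leaves fewer permutations, the log2 ratios ranged from -0.18 to -0.15 (*PSAD*, *#17*), -0.24 to -0.17 (*PSAE*, *#17*), -0.28 to -0.22 (*PSAE*, *#25*), -0.32 to -0.26 (*PSAH*, *slim1-cr*), 0.18 to 0.28 (*PSAH*, *#17*), 0.17 to 0.23 (*PSBO*, *#17*), 0.21 to 0.28 (*FNR*, *#17*) and 0.27 to 0.56 (*PETE*, age), and each failed to pass at least once. For single genes, 5232 values outside these kept direction and side of the threshold, 74 passed newly, 56 no longer passed and 1 reversed.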
